A study of Mus musculus with 4 samples.

Results

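CD8 2 is a cluster of CD8+ T cells that the authors annotated in a single-cell RNA sequencing experiment on CD45+ leukocytes from mouse melanomas. Its members were the cells given the name CD8 2 in the deposited cell annotation, which numbered 315 of the 4108 cells in the table. The tumors were formed by 20967, a melanoma line derived from a C57BL/6 mouse with the genotype Nras+LSL-G12D;Tyr::CreERT2+/o, in which the Tyr promoter drives the tamoxifen-dependent Cre in melanocytes. All tumors of both groups came from this 1 line and grew intradermally in C57BL/6 hosts that were wild type, so the CD8 2 cells themselves carried no engineered allele. One group of 5 tumors was given a control treatment and the other group of 5 received clobetasol propionate, a potent topical glucocorticoid (GC), as a topical agent. Each tumor carried its own hashtag antibody, and the 5 tumors of a group were pooled into 1 channel of a 10x Genomics chip, with 17100 cells loaded for the control group and 3500 for the clobetasol group. Effects of the treatment and of the channel thus cannot be told apart.

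CD8+ T cells kill tumor cells that display foreign peptides on class I molecules, by releasing perforin and granzymes and by secreting interferon-γ. When antigen persists, as in a tumor, they take on inhibitory receptors such as PD-1, CTLA-4, LAG-3 and TIM-3 and the transcription factor TOX, a state known as exhaustion. A stem-like subset that retains the factor TCF1 sustains the pool. GCs bind a receptor of the nuclear hormone family, encoded by Nr3c1, which enters the nucleus and binds DNA, and they are known to dampen cytokine production by T cells.

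The markers of CD8+ T cells are given here as a description, since the clusters were made from the same expression values. Among the 16 annotated clusters, CD8 2 had the highest mean level of Cd8a, the CD8 α chain, at 6.71 unique molecular identifiers (UMIs) per 10000 UMIs of a cell, and 89.2% of its cells held a UMI of the gene. It also ranked highest for Cd3e, a chain of the T cell receptor complex, with 6.71 UMIs per 10000 and a UMI in 94.6% of cells. Pdcd1, which encodes PD-1, was at 10.0 UMIs per 10000, again the highest of all clusters. Cd8b1, the CD8 β chain gene, was at 4.72 in CD8 2, below 5.21 in CD8 1 and 5.07 in CD8 3. A UMI of Cd8a was found in 94.1% of CD8 3 cells, more than the 89.2% of CD8 2. Cd4 and Foxp3, which mark helper and regulatory T cells, were close to the detection limit, with a UMI in 4.76% and 2.54% of the cells, and Ncr1 and Trdc, which mark NK cells and γδ T cells, were found in 0.317% and 1.27%.

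The 5 control tumors gave 51, 54, 114, 25 and 25 CD8 2 cells and the 5 clobetasol tumors gave 3, 4, 19, 4 and 16. The CD8 2 cells held 2157525 UMIs in all in the control tumors and 490768 in the clobetasol tumors, with medians of 7889 and 10204 UMIs per cell. No cell barcode was shared between the channels. Treatment was compared over tumors with 10 or more CD8 2 cells, which were all 5 control tumors and clobetasol tumors 3 and 5. The labels do not number the tumors, so a tumor's number is only a name. RNA of myeloid cells was present in CD8 2 cells and differed between the channels. The summed level of 12 macrophage markers ran from 3.00 to 6.33 UMIs per 10000 in the control tumors and from 0.509 to 0.591 in clobetasol tumors 3 and 5, and the share of CD8 2 cells with a UMI of any of them was 90.0% and 41.3%. All 12 markers were detected in both groups. For 7 neutrophil and monocyte markers the sums ran from 6.28 to 10.1 and from 4.04 to 4.08, with Retnlg at 0 in the clobetasol tumors. Of these 7, S100a8, S100a9, Csf3r, Retnlg and Il1b were too low to be tested for treatment, which leaves Plac8 and Ly6c2. Whether RNA of Plac8 and Ly6c2 came from the CD8 2 cells themselves was not tested. B cell and melanoma cell markers summed to at most 0.330 and 0.0951 UMIs per 10000 in any tumor with 10 or more CD8 2 cells. In clobetasol tumors 2 and 4, with 4 CD8 2 cells each, the melanoma cell markers summed to 1.01 and 0.383. Cd79a, Cd79b, Mlana, Dct, Tyr, Tyrp1 and Sox10 were at 0 in both groups. The 5 markers of helper and regulatory T cells summed to 2.64 to 3.27 in the control tumors, with Tnfrsf4 of this list at 1.37 to 2.39. The 5 NK cell markers, Gzma among them, summed to 0.377 to 3.49 there. A UMI of these lists was found in 61.3% and 27.9% of control CD8 2 cells, and of 6 dendritic cell markers in 19.7%.

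To place CD8 2 among its most similar clusters, its levels were set beside those of CD8 1 within each of the 5 control tumors. This is a description without a test, since the clusters were made from the same expression values. A gene was called higher or lower where the mean difference of log2(UMIs per 10000 + 0.25) was at least 1 and had the same sign in every control tumor. By that rule 72 of the 3924 genes compared (1.83%) were higher in CD8 2 and 29 (0.739%) were lower. The inhibitory receptor genes leaned towards CD8 2, with 2 of 8 called higher and a median difference of 0.70 against −0.05 over all genes compared. Transcription factors of exhausted and effector cells gave 6 of 14, costimulatory receptors 2 of 8 and cytokines and chemokines 3 of 8, all higher in CD8 2.

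Among the receptors, Lag3, whose product LAG-3 binds class II molecules and restrains T cells, was at 4.37, 4.97, 4.29, 4.58 and 5.61 UMIs per 10000 in CD8 2 of control tumors 1 to 5 and at 1.93, 1.89, 1.18, 0.680 and 0.963 in CD8 1. Every CD8 2 value lay above every CD8 1 value, and the log2 difference was 1.74 ± 0.58 (SD, n = 5). Ctla4, which encodes the receptor that competes with CD28 for its ligands, showed the same order, with 12.1, 14.5, 22.05, 27.1 and 14.1 in CD8 2 against 5.23, 5.17, 6.09, 3.91 and 4.59 in CD8 1, a difference of 1.74 ± 0.59. Pdcd1 stood at 9.06, 9.28, 9.47, 7.33 and 10.9 in CD8 2 and at 5.80, 5.50, 4.81, 4.24 and 4.14 in CD8 1. The groups of values did not overlap, although the difference of 0.88 ± 0.29 was below the fold required. Havcr2, which encodes TIM-3, differed by 0.74 ± 0.41 and was also higher in 5 of 5 tumors.

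Of the transcription factor genes, Tox was at 6.98, 10.3, 3.98, 6.95 and 6.11 UMIs per 10000 in CD8 2 and at 2.86, 2.69, 2.27, 2.40 and 2.06 in CD8 1, a log2 difference of 1.34 ± 0.40 with no overlap. Nr4a3, an orphan nuclear receptor gene that is switched on by T cell receptor signals, was at 13.4, 13.9, 8.81, 6.91 and 11.3 in CD8 2 against 3.56, 4.35, 3.60, 3.84 and 2.02 in CD8 1, a difference of 1.57 ± 0.59. The others called were Nr4a2, a relative of Nr4a3, with a difference of 1.41, Irf8 with 1.41, Ikzf2, which encodes Helios, with 1.03, and Prdm1, which encodes Blimp-1, with 1.02. The NF-κB and AP-1 family genes, Rel and Fosl2, were higher by 1.33 and 1.30. The third member of the orphan receptor family, Nr4a1, was not called, being higher in 4 of 5 tumors with a difference of 0.78 ± 1.07.

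Tnfrsf9, which encodes the costimulatory receptor 4-1BB, was among the genes that set CD8 2 apart most evenly. It stood at 10.6, 11.1, 11.1, 9.74 and 13.9 UMIs per 10000 in CD8 2 of the 5 control tumors and at 2.42, 2.61, 2.19, 1.76 and 1.90 in CD8 1, a log2 difference of 2.25 ± 0.29 (SD, n = 5). The related receptor gene Tnfrsf4, encoding OX40, differed by 1.71 ± 0.26. Ccl3, an inflammatory chemokine gene, was at 5.10, 7.36, 6.34, 3.82 and 7.38 in CD8 2 and at 2.97, 0.972, 1.77, 0.610 and 0.179 in CD8 1, and its difference of 2.29 varied widely between tumors (SD 1.26). Ifng, which encodes interferon-γ, was higher by 1.06 ± 0.47, Ccl4 by 1.10 ± 0.77 and Prf1, the perforin gene, by 1.04 ± 0.31. Gzmb, a granzyme gene, was not called, being higher in 4 of 5 tumors.

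The 15 genes with the highest mean difference were led by Gpm6b, a proteolipid family membrane protein gene, which was at 1.85, 3.48, 1.98, 3.97 and 1.82 UMIs per 10000 in CD8 2 and between 0.0757 and 0.244 in CD8 1. Its log2 difference was 2.87 ± 0.49 (SD, n = 5). Setbp1, encoding a SET-binding nuclear protein, followed with 2.82 ± 0.38, the chemokine gene Ccl1 with 2.41 ± 0.98, and Penk, which encodes the precursor of the enkephalins, with 2.19 ± 1.24. Penk varied widely between tumors, with CD8 2 levels from 0.127 to 6.39. Rgs16, which encodes a brake on G protein signals, had a difference of 2.18 ± 0.37. The remainder were Ccl3 and Tnfrsf9, given above, and Pkp4, Dlg2, Ece1, Ier5l, Il1r2, Alcam, Trps1 and Itgav, with differences from 2.14 to 1.75. Itgav encodes the integrin αV chain, and its level was 13.3, 12.1, 11.8, 5.47 and 10.1 in CD8 2 against 2.51 to 3.18 in CD8 1.

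Of 9 naive and stem-like genes 2 were called lower in CD8 2 (against 0.739% of all genes compared), and these were Klf2 and S1pr1. In the list of tissue residency and homing, 2 of 10 genes were called higher (against 1.83%), Rgs16 and Crtam. In the same list 1 was called lower (against 0.739%), Itgae. The median of that list was −0.28 against −0.05 over all genes compared, with 4 of 10 above 0. Klf2, a transcription factor of quiescent and circulating T cells, was at 0.427, 0.140, 0.452, 0.492 and 0.759 UMIs per 10000 in CD8 2 and at 1.70, 1.56, 3.21, 2.50 and 2.31 in CD8 1, a log2 difference of −1.86 ± 0.42 (SD, n = 5). Its target S1pr1, which encodes the receptor T cells use to leave tissue, was at or below 0.126 in CD8 2 and between 0.597 and 1.03 in CD8 1. Itgae, which encodes the αE integrin CD103 of tissue-resident T cells, was also lower, with 1.18, 1.12, 1.54, 1.31 and 1.84 against 2.96, 4.53, 4.36, 4.49 and 5.31, a difference of −1.47 ± 0.24. For all 3 genes the values of the clusters did not overlap. The heat shock genes Hspa1b and Hsph1 were lower by 2.06 and 1.59 on the log2 scale, and Hspa1a by 1.80. Hspa1a and Hspa1b are near-identical copies whose reads cannot be told apart with certainty. Rap1gap2, Lmna, Pard3 and Itsn1 made up the rest of the 10 lowest. Tcf7, the TCF1 gene, was lower in 5 of 5 tumors, but by 0.74 with an SD of 0.72.

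**Figure D1:**
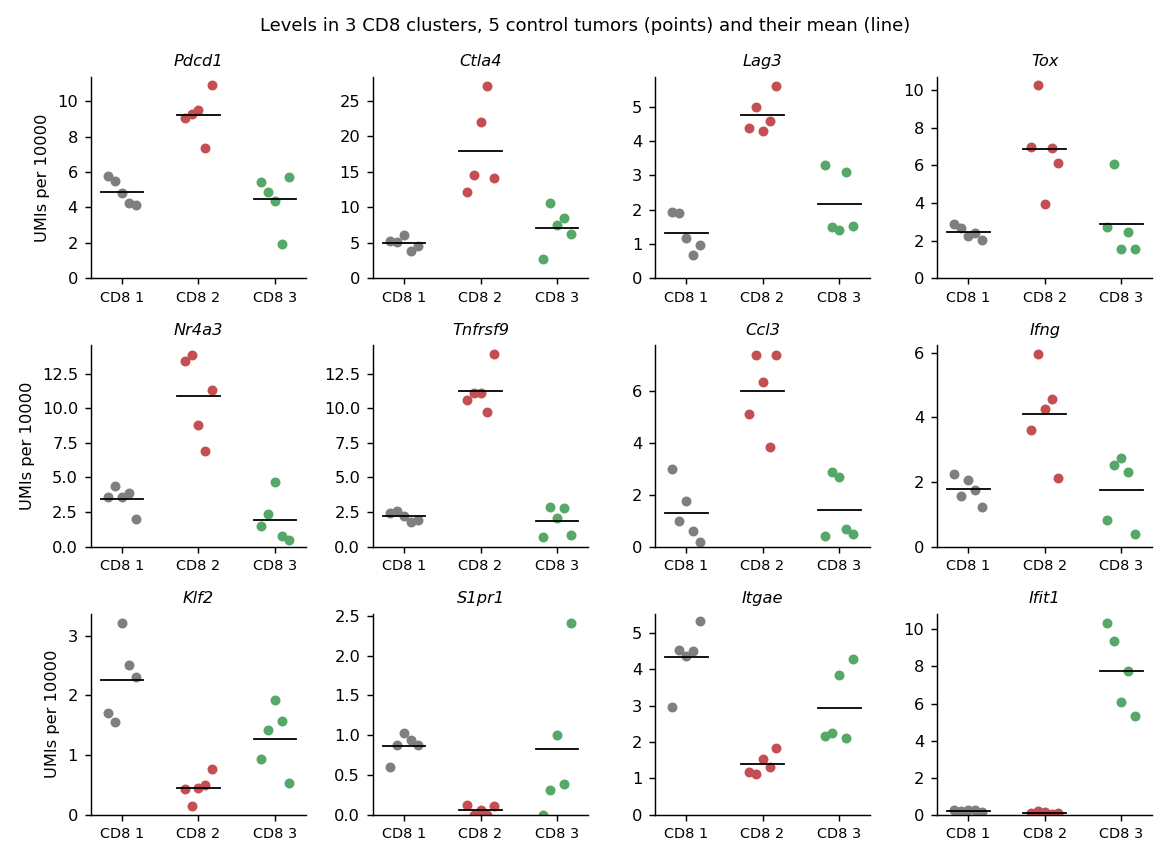
Mean level in UMIs per 10000 (vertical axes) of 12 genes in the CD8 1, CD8 2 and CD8 3 clusters. Each point is 1 of the 5 control tumors and the line is their mean. The CD8 2 points of Pdcd1, Lag3, Ctla4 and Tnfrsf9 lie above all CD8 1 points, those of Klf2, S1pr1 and Itgae lie below them, and Ifit1 is high in CD8 3 alone.

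Detection in single cells was compared after each cell had been thinned to 3000 UMIs, since CD8 2 cells were deeper than CD8 1 cells (medians of 7889 and 6342 UMIs in the control tumors). The 255 control CD8 2 cells deep enough for this were used, and 14 shallower cells were left out. Pdcd1 was detected in 82.7% of CD8 2 cells (exact binomial 95% interval 77.5 to 87.2), in 60.9% of CD8 1 cells and in 53.8% of CD8 3 cells. Tumor-associated macrophages gave 0.575% at the same depth from a median of 12883 UMIs per cell. Before thinning the CD8 2 share was 94.4%. A UMI of both Pdcd1 and Tox was found in 47.5% of CD8 2 cells (41.2 to 53.8), in 19.96% of CD8 1 cells and in 15.4% of CD8 3 cells, and these shares were 64.7%, 30.4% and 26.6% before thinning.

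Tcf7 showed the opposite order. It was detected in 7.84% of thinned CD8 2 cells (4.86 to 11.9), in 20.6% of CD8 1 cells and in 0.287% of macrophages, and in 14.5%, 30.2% and 0.692% before thinning. Cells with a UMI of both Pdcd1 and Tcf7, the pair that marks stem-like exhausted cells, made up 5.10% of CD8 2 (2.74 to 8.56) and 12.3% of CD8 1 (9.48 to 15.6), and 12.6% and 22.4% before thinning. The share in CD8 3 was 4.40% (1.21 to 10.9), and 11.7% before thinning, so a low share was not particular to CD8 2. Itgae was detected in 21.96% of CD8 2 cells and in 53.9% of CD8 1 cells, and in 30.9% and 64.0% before thinning. For Tnfrsf9 the share was 76.9% in CD8 2 and 33.1% in CD8 1, but 34.8% in macrophages, so its share in CD8 1 lay at the level of that cell type (88.5%, 44.7% and 50.3% before thinning). Intervals cover counting error only.

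CD8 3 was the other CD8+ cluster with enough cells for comparison, with 94 in the control tumors and 6 to 57 in each. Against it, 143 of 4004 genes (3.57%) were higher in CD8 2 and 168 (4.2%) were lower. The main group among the lower genes was that of interferon-stimulated genes, 12 of 14 of which were called, with a median log2 difference of −2.52 against 0.10 over all genes compared. Ifit1, which encodes an antiviral protein that binds foreign RNA, was at 0.0824, 0.189, 0.157, 0.0628 and 0.0729 UMIs per 10000 in CD8 2 and at 10.3, 9.37, 6.09, 7.77 and 5.31 in CD8 3. The clusters were far apart in every tumor, with a difference of −4.44 ± 0.42 (SD, n = 5). Usp18, Ifit3, Rsad2, Slfn5, Samhd1, Rnf213, A330040F15Rik, Ifit2 and Isg15 completed the 10 lowest, from −3.80 to −3.17. Ifit1 in CD8 1 lay between 0.129 and 0.278, and of the 6 genes of this list that could be compared with CD8 1 only Ifi27l2a was called, higher in CD8 2 by 1.26.

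AP-1 and NF-κB genes ran the other way, with 7 of 14 called higher in CD8 2 than in CD8 3 (against 3.57% of all genes compared). They were Rel, Nfkbia, Nfkb1, Nfkb2, Fosl2, Egr1 and Jund, with log2 differences from 2.22 to 1.03. Pdcd1 passed the fold against CD8 3, at 1.08 ± 0.42 (SD, n = 5), beside Lag3 at 1.14 and Ctla4 at 1.36. Il2ra, which encodes the high-affinity chain of the IL-2 receptor, was higher by 1.72. Of 12 cytotoxic granule genes, Gzmf was called higher in CD8 2, at 1.96 ± 1.08 (against 3.57% of all genes compared). Gzma was called lower, at −1.96 ± 1.84 (against 4.2%). The early activation and residency gene Cd69 was lower by 1.67. The 10 genes furthest above CD8 3 were Rgs16, at 3.55 ± 1.02, Alcam, Dscam, Ccl1, Gpm6b, Penk, Nr4a3, Tnfrsf9, Kcnq5 and Tnfrsf4. Of the genes higher in CD8 2, 53 were called against both clusters, which was 73.6% of those called against CD8 1 and 37.1% of those called against CD8 3. Only 6 genes were called lower against both, 20.7% of the CD8 1 list and 3.57% of the CD8 3 list. The 2 CD8 2 comparisons share the CD8 2 values of the same tumors.

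CD8 2 cells also differed from one another. At 3000 UMIs per cell, a gene whose counts vary only by sampling has a variance close to its mean, and Lck, which encodes the kinase that starts T cell receptor signaling, had a variance-to-mean ratio of 0.996 over the 255 control cells. The ratio was 39.6 for Gzma, which was detected in 7.06% of the cells with up to 65 UMIs in 1 cell. It was 34.9 for Ccl4, detected in 50.2% of the cells with up to 138 UMIs, 24.9 for Gzmc and 20.3 for Ccl3. Granzyme and chemokine transcripts were thus concentrated in a part of the cluster. Gzmb had a ratio of 12.7 and was detected in 40.4% of the cells. These shares run over cells of all control tumors and are a description only.

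To ask whether GC treatment altered how many of the infiltrating leukocytes were CD8 2 cells, their share of CD45+ cells was compared between tumors. It was 6.41%, 6.44%, 9.12%, 4.38% and 7.20% in control tumors 1 to 5 and 16.7%, 5.33%, 17.1%, 18.2% and 20.3% in clobetasol tumors 1 to 5. Clobetasol tumors 1, 3, 4 and 5 lay above all control tumors, while clobetasol tumor 2 lay within the control range. The means were 6.71% ± 1.71 and 15.5% ± 5.85 (SD, n = 5 each), a difference of 8.80 percentage points (exact two-sided permutation test, p = 0.0397). The difference was 7.62 with p = 0.0635 by the same exact test without clobetasol tumor 5, and 7.53 with p = 0.0893 over the 3 clobetasol tumors with 50 or more cells. Clobetasol tumors 1 and 4 held 18 and 22 cells in all, and their exact binomial 95% intervals ran from 3.58% to 41.4% and from 5.19% to 40.3%. Fewer cells of other types raise this share as more CD8 2 cells do, and the files hold no absolute numbers.

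The balance between CD8 2 and CD8 1 does not involve the counts of other cell types. The log2 ratio of CD8 2 to CD8 1 cells, with 0.5 added to each count, was −0.80, −0.82, −0.91, −1.36 and −1.07 in the control tumors and −0.36, −0.53, 0.08, −0.29 and −0.38 in the clobetasol tumors. The groups did not overlap. The mean rose from −0.99 ± 0.23 to −0.30 ± 0.23 (SD, n = 5 each), a 1.62-fold higher ratio (exact two-sided permutation test, p = 0.00794, the smallest that 252 arrangements of 10 tumors can give). Some of the genes that separate CD8 2 from CD8 1 were themselves among those that changed with treatment. In the limma comparison of treatments described next, 69 of the 72 genes higher in CD8 2 were tested, and 6 of them rose (8.70%, against 1.78% of all genes tested) and 2 fell (2.90%, against 1.14%). CD8 2 cells of the clobetasol tumors were also deeper, with median UMIs of 6682 to 8146 in the control tumors and of 6895 to 11669 in the clobetasol tumors, a difference of 1932.5 that did not pass the exact permutation test (p = 0.0714). The part of these measures in the ratio was not tested.

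**Figure D2:**
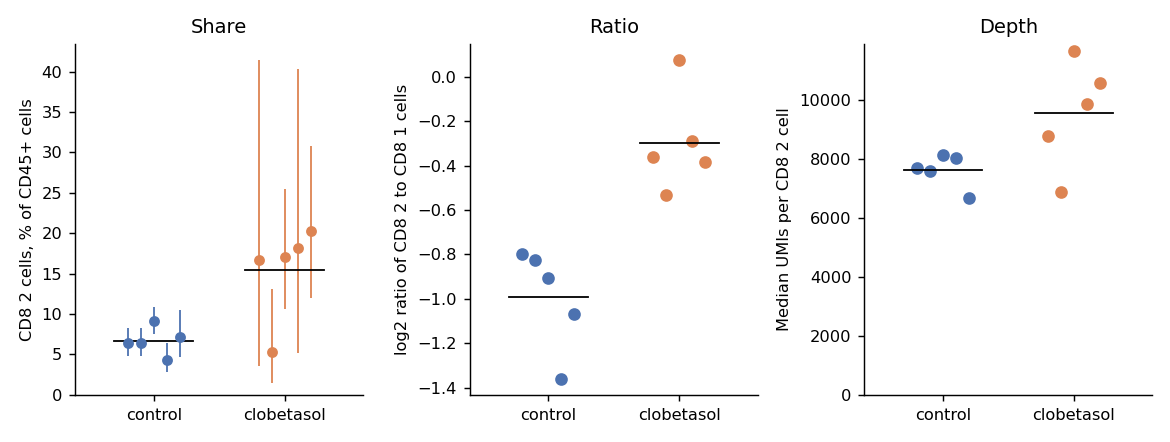
CD8 2 cells as a percentage of CD45+ cells (left), log2 ratio of CD8 2 to CD8 1 cells (middle) and median UMIs per CD8 2 cell (right) in 5 control and 5 clobetasol tumors. Points are tumors, horizontal lines are means and vertical lines at the left are exact binomial 95% intervals. The ratios of the groups do not overlap, and the shares overlap through clobetasol tumor 2 at 5.33%.

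Gene expression of CD8 2 cells was then compared between the treatments with limma, over the 5 control tumors and the 2 clobetasol tumors with enough cells. Of the 3589 genes tested, 64 (1.78%) rose and 41 (1.14%) fell at an adjusted p under 0.05, which together made 2.93% of the genes. The values of both clobetasol tumors lay outside the control range for all 105 called genes, as they did for 791 of the 3589 genes (22%). With the clobetasol tumors of 3 or 4 cells included, 45 of the 105 still showed no overlap, against 170 of all genes tested (4.74%). The negative binomial test of edgeR on whole UMIs called 67 genes higher (1.87%) and 14 lower (0.39%), together 2.26%, and 71 genes were called by both methods. The share of calls that were higher was 61.0% with limma, 82.7% with edgeR, 69.9% with DESeq2, 70.4% with median-of-ratios scaling and 84.5% when the deposited log values were averaged. It was 46.6% without clobetasol tumor 3, with 41 genes higher and 47 lower, and 53.9% without clobetasol tumor 5, fits that hold 1 clobetasol tumor each. The median of all genes tested was −0.04.

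The GC pathway itself was represented by the receptor gene and by classical targets. Of 10 genes of this list tested, 1 rose with limma (against 1.78% of all genes tested) and 3 with edgeR (against 1.87%), and 0 fell. The median difference was 0.50. Tsc22d3, which encodes GILZ, a leucine zipper protein induced by GCs, was at 0.873, 0.692, 1.30, 0.688 and 1.41 UMIs per 10000 in control tumors 1 to 5. In the clobetasol tumors it was at 3.08 and 4.26 in tumors 3 and 5, and at 3.62, 4.89 and 4.93 in tumors 1, 2 and 4. Every clobetasol tumor lay above every control tumor, and the log2 difference was 1.68 ± 0.26 (SE, limma adjusted p = 0.00316). Fkbp5, a co-chaperone of the GC receptor, also did not overlap between the groups of 5, with 0.623 to 1.21 against 1.38 to 6.16, and passed with edgeR (adjusted p = 0.0338) but not with limma (difference 0.99 ± 0.27, adjusted p = 0.0596). Dusp1, a phosphatase gene that limits MAP kinase signals, gave 1.19 ± 0.33 and an edgeR adjusted p of 0.0227 against 0.0862 with limma. Nr3c1 was at 7.09 to 8.54 in the control tumors and at 8.29 to 21.3 in the clobetasol tumors, a difference of 0.39 ± 0.15 that did not pass (limma adjusted p = 0.197).

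The GC receptor binds inverted repeats of a short DNA motif, which were looked for in RefSeq promoters of GRCm38.p6 as GNACANNNTGTNC, a pattern that reads alike on both strands. The window ran from 250 bases before to 50 bases after each gene's start. Of 27025 promoters 125 held the pattern (0.463%). Of the genes that rose, 52 had a promoter in the table and 0 held it, and of those that fell, 34 had one and 0 held it. Of 13 genes of the GC list with a promoter, 2 did, and their sites are shown because both genes belong to the tested list. Capitals mark the pattern.
Txnip: cgctaggaGCACACCGTGTCCacgcgccc
Mt1: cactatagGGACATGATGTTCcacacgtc
The Txnip site lies in the promoter window chr3:96557707-96558006 on the plus strand, with the first base of the stretch at −172 from the start. The Mt1 site lies in chr8:94178839-94179138, also on the plus strand, with the first base at −94. Txnip, which encodes a thioredoxin-binding protein, differed by 0.61 ± 0.20 (limma adjusted p = 0.119), and Mt1, a metallothionein gene, by 1.46 ± 0.39 (limma adjusted p = 0.0566). Neither passed. A match is a description of these letters in this window, not of receptor binding.

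Among the 10 largest rises, Zfp36l2, which encodes a protein that promotes decay of AU-rich transcripts, was at 10.8, 5.10, 6.30, 5.17 and 5.83 UMIs per 10000 in the control tumors. It was at 18.6 and 27.9 in clobetasol tumors 3 and 5 and at 13.8, 29.8 and 27.4 in the others. The groups of 5 did not overlap, and the difference was 1.80 ± 0.27 (SE, limma adjusted p = 0.00409). Cited2, a transcriptional coactivator gene at chr10:17723218-17725674 on the plus strand, was at 0.156, 0.429, 0.284, 0.242 and 0.425 in the control tumors. It reached 1.47 and 2.29 in clobetasol tumors 3 and 5 and 1.55, 1.19 and 0.490 in the others, so that again no values overlapped (difference 1.93 ± 0.28, limma adjusted p = 0.00222). Itgav, which was higher in CD8 2 than in CD8 1, rose from 13.3, 12.1, 11.8, 5.47 and 10.1 to 34.9 and 32.3 in clobetasol tumors 3 and 5. Clobetasol tumors 1, 2 and 4 were at 20.3, 18.2 and 48.4, all above the controls, and the difference was 1.71 ± 0.28 (limma adjusted p = 0.00977). The rise was not particular to CD8 2. In CD8 1 Itgav was at 2.51 to 3.18 in the control tumors and at 9.15 and 9.69 in clobetasol tumors 3 and 5.

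The largest rise was that of Gm13684, a noncoding transcript at chr2:83737782-83759865 on the minus strand (GRCm38), at 2.01 ± 0.29. It lies inside Itgav on the opposite strand, so the assignment of its reads is uncertain. The other genes among the 10 were Ctsc, the cathepsin C gene whose product activates granzymes, at 1.72 ± 0.30, the serpin gene Serpinb6b at 1.69 ± 0.39, Sv2c, a synaptic vesicle protein gene, at 1.65 ± 0.29, Tmem106b, a lysosomal membrane protein gene, at 1.60 ± 0.35, and the kinase gene Abl1 at 1.59 ± 0.28. Serpinb9, which encodes the inhibitor that shields killer cells from granzyme B, also rose, by 1.10 ± 0.26 (limma adjusted p = 0.0408). Serpinb6b and Serpinb9 belong to families of close copies, between which reads may be split. With all 5 clobetasol tumors included, the values of Gm13684, Ctsc, Serpinb6b, Serpinb9, Sv2c and Abl1 overlapped with the controls, and those of Tmem106b did not.

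The largest fall was that of Ccr2, a chemokine receptor gene of T cells and monocytes. It was at 4.82, 1.55, 3.12, 2.83 and 3.03 UMIs per 10000 in the control tumors and at 0.609 and 0.422 in clobetasol tumors 3 and 5, with 0.688, 0 and 0.489 in the others. All clobetasol values lay below all control values (difference −2.05 ± 0.31, SE, limma adjusted p = 0.00377). In the list of tissue residency and homing genes, 4 of 10 fell with limma (against 1.14% of all genes tested) and 2 with edgeR (against 0.39%). In this list 0 rose with either, and the median was −0.72. Besides Ccr2 those called by limma were Itgae, at −1.23 ± 0.25 (limma adjusted p = 0.0156), Rgs16, at −1.24 ± 0.26 (limma adjusted p = 0.0208), and Cxcr6, at −0.72 ± 0.18 (limma adjusted p = 0.0414). Cxcr6, the receptor gene that retains T cells near CXCL16, was at 10.7, 9.60, 11.5, 8.59 and 11.4 in the control tumors and at 7.21 and 5.25 in clobetasol tumors 3 and 5, with 1.21, 6.85 and 2.52 in the others, so its groups did not overlap. Rgs16 was at 4.76 to 8.70 in the control tumors and at 0.380 to 3.57 in all 5 clobetasol tumors. Macrophages and monocytes also express Ccr2, and the macrophage marker sum fell beside it, as given above. The difference of Ccr2 was still called (limma adjusted p = 0.00434) without cells holding 3 or more macrophage marker UMIs, and those of Itgae and Cxcr6 were not (limma adjusted p = 0.0785 and 0.0792). The edgeR test did not call Rgs16 (adjusted p = 0.0674) or Cxcr6 (adjusted p = 0.0647), and Itgae overlapped with the controls in clobetasol tumor 1, at 1.14.

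Transcription factor genes supplied further falls. Tbx21, which encodes T-bet, the driver of type 1 effector genes, was at 3.76, 4.47, 3.74, 3.01 and 3.43 in the control tumors and at 1.17 and 2.50 in clobetasol tumors 3 and 5 (difference −0.98 ± 0.24, SE, limma adjusted p = 0.0378). Clobetasol tumors 1 and 2 were low as well, at 0.688 and 1.54, and tumor 4 was at 4.48, level with the highest control tumor. Irf8 fell by 1.30 (SE 0.32, limma adjusted p = 0.0418) and Bcl6, the repressor gene of follicular helper cells, by 1.32 (SE 0.28, limma adjusted p = 0.0240). In the list of exhaustion and effector factors 2 of 14 fell with limma (against 1.14% of all genes tested) and 0 with edgeR. In this list 0 rose with either, and the median was −0.39. Among the clobetasol tumors of 3 or 4 cells, tumor 1 was at 2.03 for Bcl6, within the control range. Irf1, which mediates interferon responses, fell by 0.94 (SE 0.24, limma adjusted p = 0.0434), although tumors 1 and 2 were at 2.21 and 1.45, not below the controls, while the remaining interferon-stimulated genes tested, 3 of 4, were not called. Tbx21, Irf8 and Irf1 were called neither by edgeR (adjusted p = 0.0886, 0.0675 and 0.163) nor by limma without cells of 3 or more macrophage marker UMIs (adjusted p = 0.0529, 0.139 and 0.166). The rest of the 10 largest falls were Cd74, described with the myeloid RNA, and Abhd18, 1810026B05Rik, Senp7 and Rasa1, at −1.45 to −1.12.

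Among the inhibitory receptors, 1 of 8 genes rose with limma (against 1.78% of all genes tested) and 0 fell, with a median of 0.54. Pdcd1 was at 9.06, 9.28, 9.47, 7.33 and 10.9 UMIs per 10000 in the control tumors and at 13.8 and 18.1 in clobetasol tumors 3 and 5. Tumors 2 and 4 were at 13.02 and 13.03, above all controls, and tumor 1, with 3 CD8 2 cells, was at 2.13, below them. The difference over the 5 and 2 tumors was 0.77 ± 0.18 (SE, limma adjusted p = 0.0296), and with all tumors of 3 or more cells it was not called by limma (adjusted p = 0.933) or by edgeR (adjusted p = 0.374). It was not called either without clobetasol tumor 5 (limma adjusted p = 0.176), control tumor 1 (0.0680) or control tumor 3 (0.0618). Lag3 pointed the other way, at 4.29 to 5.61 in the control tumors and at 3.53 and 1.37 in clobetasol tumors 3 and 5 and 1.03, 2.74 and 2.32 in the others. No values overlapped, and the difference of −1.01 ± 0.26 missed the threshold with limma (adjusted p = 0.0511) and with edgeR (adjusted p = 0.195). Cd200r1, the receptor gene of the CD200 checkpoint, fell by 1.16 on the log2 scale with edgeR (adjusted p = 0.0229) and not with limma (adjusted p = 0.0591). Tox differed by 0.40 ± 0.29 (limma adjusted p = 0.517), Havcr2 by 0.68 ± 0.22 (limma adjusted p = 0.102), Tigit by 0.80 ± 0.26 (limma adjusted p = 0.114) and Ctla4 by 0.02 ± 0.28 (limma adjusted p = 0.987).

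In the naive and stem-like list, 1 gene of 6 tested rose with limma, against 1.78% of all genes tested. It was Il7r, which encodes the receptor for the survival cytokine IL-7 and was at 5.02, 3.01, 4.96, 3.01 and 3.79 UMIs per 10000 in the control tumors and at 14.6 and 8.53 in clobetasol tumors 3 and 5. Tumors 1 and 2 were at 11.3 and 9.45 and tumor 4 at 4.20, inside the control range. The difference was 1.47 ± 0.25 (SE, limma adjusted p = 0.00578). Bcl2, the founding antiapoptotic gene of its family, and Ccr7, the homing receptor gene of lymph node T cells, passed with edgeR (adjusted p = 0.0284 and 0.0279) and not with limma (adjusted p = 0.0622 and 0.0862). Bcl2l11, which encodes the proapoptotic protein BIM, rose as well, by 0.96 ± 0.24 (limma adjusted p = 0.0412), but was not called in 8 of 19 alternatives, among them without control tumor 2 or 3 and without cells of 3 or more macrophage marker UMIs (limma adjusted p = 0.487). It was the 1 gene called among 8 of the survival and death list, whose median was 0.30. Of the 13 naive and stem-like genes 6 were tested, with a median of 0.79, and the other 7, Tcf7 among them, were too low.

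Effector genes gave no call over the 5 and 2 tumors. Of 11 cytotoxic granule genes, 8 cytokines and chemokines, 8 costimulatory receptors, 7 NK receptor family genes and 11 genes of TGF-β receptors, mediators and targets, 0 passed with limma and 0 with edgeR. The cytokines and chemokines were nevertheless all below 0, with a median of −0.85, and so were the 7 NK receptor genes, with a median of −0.71. Of all genes tested, 45.4% lay above 0. Ifng was at 3.62, 5.95, 4.27, 4.58 and 2.12 UMIs per 10000 in the control tumors. In clobetasol tumors 3 and 5 it was at 0.127 and 6.76, values on either side of all controls, and at 0.344, 0.283 and 0.245 in the others. The difference of −1.35 ± 1.13 did not pass (SE, limma adjusted p = 0.590). Ccl3 and Ccl4 had the same pattern, with 0 and 5.16 for Ccl3 and 1.40 and 19.2 for Ccl4 in clobetasol tumors 3 and 5, against 3.82 to 7.38 and 13.8 to 29.0 in the control tumors. Gzmb differed by −0.99 ± 0.61 (limma adjusted p = 0.460) and Prf1 by −0.47 ± 0.28 (limma adjusted p = 0.408). For these 3 genes clobetasol tumor 5 decided the call. Without it, leaving clobetasol tumor 3 alone against the controls, limma called falls of Ifng (−3.46, adjusted p = 0.00214), Ccl3 (−4.61, adjusted p = 5.84e-06) and Ccl4 (−3.76, adjusted p = 0.000258). Tgfbr2, the type 2 TGF-β receptor gene, differed by −0.30 ± 0.20 (limma adjusted p = 0.457).

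**Figure D3:**
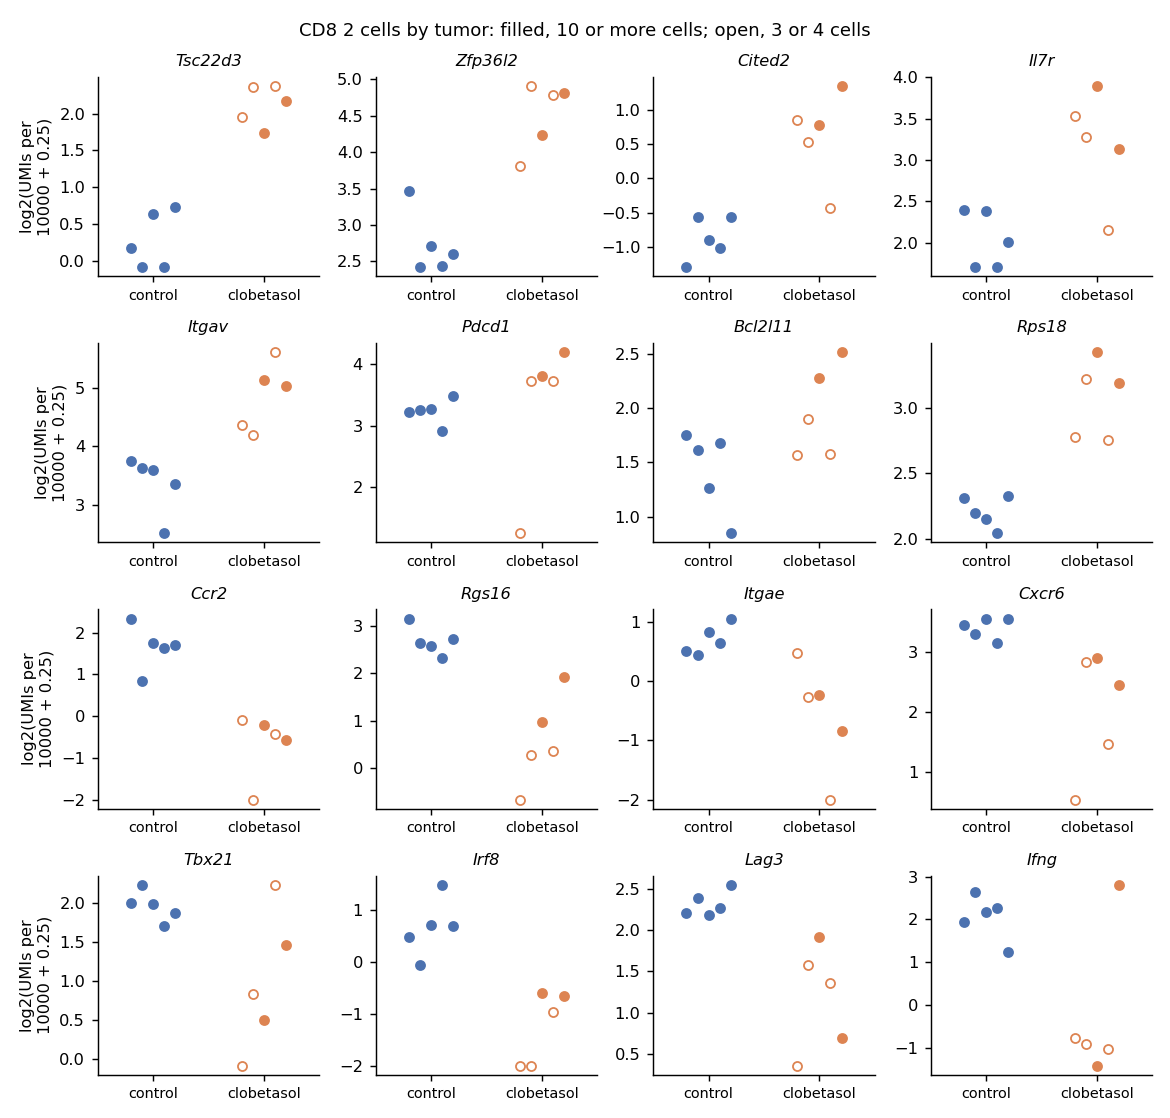
Level of 16 genes in CD8 2 cells of each tumor, as log2(UMIs per 10000 + 0.25). Filled points are tumors with 10 or more CD8 2 cells, which entered the fit, and open points are clobetasol tumors with 3 or 4 cells. Tsc22d3, Zfp36l2, Cited2 and Itgav are higher in all 5 clobetasol tumors than in any control tumor, Ccr2, Rgs16, Cxcr6 and Lag3 are lower in all 5, and Ifng is spread in the clobetasol tumors.

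**Figure D4:**
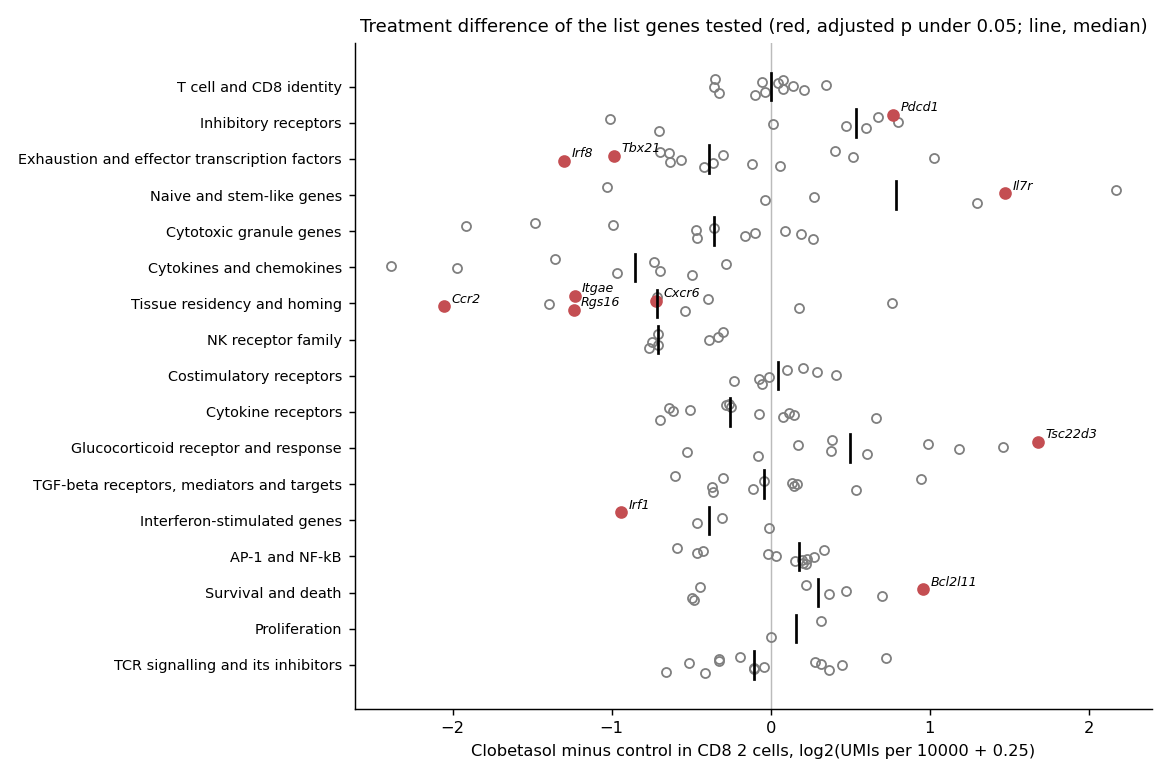
Treatment difference in CD8 2 cells (horizontal axis, log2) of each gene tested in the gene lists (rows). Red points are genes with a limma adjusted p under 0.05, open points are the others and the vertical line is the median of the list. The medians run from −0.85 for cytokines and chemokines to 0.79 for the naive and stem-like list, the homing list has 4 of 10 genes called lower, and all cytokine and chemokine genes lie below 0. Of all genes tested, 45.4% lie above 0.

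Whether these changes were particular to CD8 2 was tested with the same contrast in CD8 1 cells of the same tumors. In CD8 1, 139 of 3589 genes rose and 180 fell. Of the 64 genes that rose in CD8 2, 57 had the same sign in CD8 1 and 40 were called there. Of the 41 that fell, 36 had the same sign and 20 were called. The share of all 3589 genes with the same sign in both clusters was not computed, so the sign counts are a description only. Both clusters also came from the same channels. The test of the within-tumor difference between the clusters called 4 genes of 3589 (0.111%), against 367 with an unadjusted p under 0.05. Cited2 rose in CD8 2 and differed by 0.04 ± 0.24 in CD8 1, so the difference of the differences was 1.90 ± 0.33 (SE, limma adjusted p = 0.0460). The others were Abl1 at 1.85 ± 0.30, the Polycomb gene Scmh1 at 1.91 ± 0.33 and N4bp2l1 at 1.44 ± 0.24, each with a limma adjusted p of 0.0460. N4bp2l1 was called in neither direction within CD8 2 (0.64 ± 0.24, limma adjusted p = 0.166) and fell in CD8 1, by 0.79 (SE 0.20, limma adjusted p = 0.0271). Pdcd1 rose in CD8 1 by 1.30 ± 0.15 (limma adjusted p = 0.000626), and its difference between the clusters, −0.53 ± 0.33, was not called (limma adjusted p = 0.632). Tbx21 fell in CD8 1 by 1.93 (SE 0.15) and its difference between the clusters was 0.94 ± 0.28 (limma adjusted p = 0.249). Leaving out any 1 control tumor left 0 genes called in this test, leaving out clobetasol tumor 3 gave 35, and leaving out clobetasol tumor 5 gave 17. In the latter fits the clobetasol arm is 1 tumor, and the spread comes from the control tumors.

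A further pattern, chosen after the values were seen, was a rise of ribosomal protein transcripts. Of 81 ribosomal protein genes tested, 17 rose (20.99%, against 1.78% of all genes tested), 0 fell and 80 lay above 0 (98.8%, against 45.4% of all genes tested), with a median of 0.46. Rps18 was at 4.72, 4.34, 4.19, 3.87 and 4.75 UMIs per 10000 in the control tumors and at 10.5 and 8.87 in clobetasol tumors 3 and 5 (difference 1.10 ± 0.17, SE, limma adjusted p = 0.00295), and at 6.49 to 9.08 in the others. All clobetasol tumors lay above all control tumors. Ribosomal protein genes made up 9.62% ± 1.04 of the UMIs of CD8 2 cells in the control tumors (SD, n = 5) and 12.5% ± 1.01 in the clobetasol tumors (n = 2; exact permutation p = 0.0476, the smallest that 21 arrangements can give). In clobetasol tumors 1, 2 and 4 it was 8.77%, 9.77% and 11.03%, within the control range of 8.42% to 11.1%. The share moved in the same direction in CD8 1, from 10.7% to 12.9%, and in all cells outside CD8 1 to 3, from 7.66% to 9.83%. The nuclear noncoding RNA Malat1 fell from 1.29% ± 0.138 to 0.726% ± 0.0317 of the UMIs of CD8 2 cells, from 1.36% to 0.807% in CD8 1 and from 1.73% to 1.29% in the other cells. Both shifts were thus present in cells outside CD8 2 as well, and their part in the calls of single genes was not tested.

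Cd74, the invariant chain of class II molecules and a macrophage marker, was among the 10 largest falls. It was at 0.787, 0.974, 1.95, 1.25 and 1.03 UMIs per 10000 in CD8 2 cells of the control tumors and at 0.265 and 0.0587 in clobetasol tumors 3 and 5, with 0 in the others (difference −1.81 ± 0.30, SE, limma adjusted p = 0.00462). A UMI of Cd74 was found in 50.2% of control CD8 2 cells and in 10.9% of clobetasol CD8 2 cells. H2-Aa, a class II gene, was found in 29.0% and 2.17%, and Tgfbi, a macrophage matrix gene, in 30.1% and 4.35%. These were among the largest shifts of the macrophage markers. C1qc was found in 4.83% and 4.35% and Cd68 in 6.32% and 4.35%, and Fcgr1 went the other way, with 1.12% and 2.17%. Cd74, H2-Aa and Tgfbi are themselves part of the macrophage marker sum, so their fall beside it is no separate observation. The part of free macrophage RNA in the fall of Cd74 was not tested. Without the CD8 2 cells that held 3 or more macrophage marker UMIs, Cd74 was too low to be tested. Of the 105 called genes, 34 of those that rose and 12 of those that fell were still called without the CD8 2 cells that held 3 or more macrophage marker UMIs, a set that made up 42.0% of the control cells and 4.35% of the clobetasol cells.

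**Figure D5:**
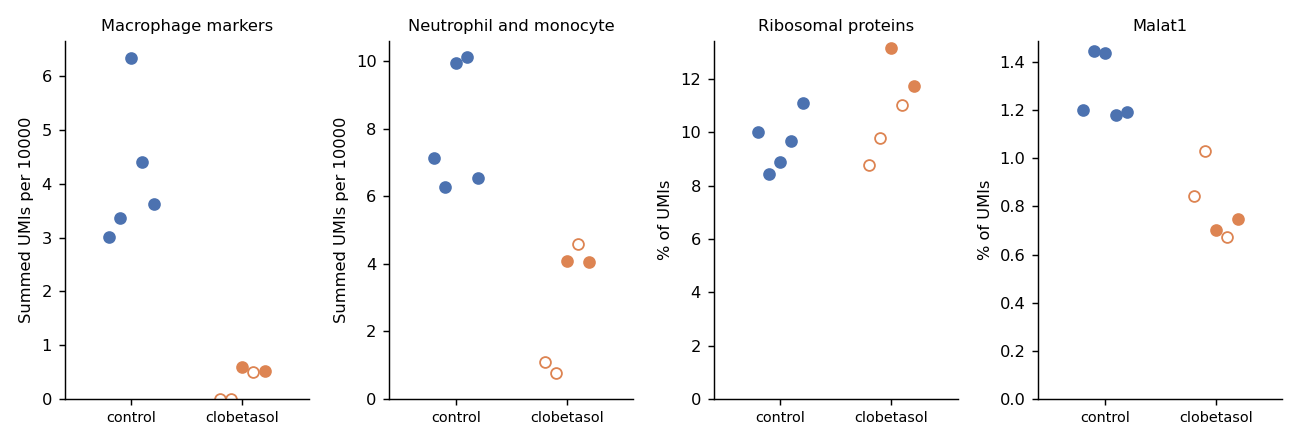
Summed level of macrophage markers and of neutrophil and monocyte markers in CD8 2 cells (UMIs per 10000), and the share of their UMIs from ribosomal protein genes and from Malat1 (percent). Points are tumors, filled with 10 or more CD8 2 cells and open with 3 or 4. Macrophage markers lie at 3.00 to 6.33 in the control tumors and at 0.509 to 0.591 in the filled clobetasol tumors.

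Tsc22d3, Zfp36l2, Ccr2, Rps18 and Malat1 kept direction and call in all 19 alternative analyses. Among these, the minimum of 5 cells per tumor kept the same tumors, so it repeated the main fit and could not differ. Gm13684, Abl1 and 1810026B05Rik lost the call only when tumors with 3 or 4 cells were added, and Cited2 also when deposited log values were averaged. Ctsc, Sv2c and Il7r also lost the call over tumors of 3 or more cells (limma adjusted p = 0.710, 0.335 and 0.0823), Rgs16 and Cd74 with edgeR (adjusted p = 0.0674 and 0.0556), and Itgae over tumors of 3 or more cells and with averaged log values. Leaving out clobetasol tumor 3 or 5 leaves 1 clobetasol tumor, which is assumed to vary like the controls. In such fits the difference of Itgav was 1.65 without tumor 3 (limma adjusted p = 0.0728) and 1.76 without tumor 5 (limma adjusted p = 0.0572), close to the 1.71 of both. Il7r, Rasa1 and Rgs16 were not called without clobetasol tumor 3 (limma adjusted p = 0.0608, 0.0688 and 0.142), nor Ctsc, Sv2c, Itgae and Cd74 without clobetasol tumor 5 (limma adjusted p = 0.0793, 0.0715, 0.105 and 0.0529). Serpinb6b and Serpinb9 kept the call in 12 of 19 alternatives, Tmem106b in 12 of 18, Bcl6 in 14 of 19 and Senp7 in 13 of 18. Cxcr6, Irf1, Irf8, Tbx21 and Abhd18 were the least firm, keeping the call in 7, 3, 8, 9 and 5 of their alternatives, and all 5 kept the direction throughout.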

How the data were processed

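Per the labels and the study's methods, the authors aligned reads with Cell Ranger 7.1.0 to the mouse mm10 reference, introns included, assigned tumors by hashtag, kept cells with 1 hashtag in Seurat 5.0.3 under R 4.3.1, removed low-quality cells and clustered both channels after integration. The deposited expression table holds the natural log of 1 plus UMIs per 10000. The deposited cell annotation gives UMI counts, gene counts, the percent of mitochondrial reads, tumor and cluster. Whole UMI counts were recovered from the deposited log values, and in 4108 of 4108 cells their sum equalled the listed total. No doublet caller was run, so doublets within 1 tumor remain.

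Levels were averaged over the CD8 2 cells of a tumor, which was the replicate, and the labels do not say more about how tumors were shared between mice. Differences used log2(UMIs per 10000 + 0.25) and were tested for genes whose average over both group means reached 0.5. Treatment was tested with limma 3.58.1 (trend, robust) in R 4.3.3 with Benjamini-Hochberg adjustment at 0.05. The difference from CD8 1 was tested on within-tumor differences. Shares, ratios and depth were compared with exact two-sided permutation tests, using Python 3.11.15, NumPy 2.4.6 and SciPy 1.17.1. On data simulated for the treatment comparison over 3589 genes, limma called 96% of genes changed 4-fold and 40% of genes changed 2-fold, and 7.48% of its calls fell on unchanged genes. The simulation gave every gene the same dispersion in both groups, with no channel effect and no shift in macrophage RNA. These rates therefore need not hold for the measured tumors. Alternatives were edgeR 4.0.16 and DESeq2 1.42.0 on recovered counts, other scalings, pseudocounts and filters, other cell minimums and leaving out each tumor. The text names the genes of the fixed lists, the 10 largest rises and falls among called genes, the 15 highest and 10 lowest genes against CD8 1, and the 10 highest and 10 lowest against CD8 3. Serpinb9, Bcl6, Rps18 and Malat1 were added after their values were seen. The cells described, the gene lists and the tests were chosen with earlier results of these data known. Coordinates are those of GRCm38.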

Additional observations from a re-analysis of the deposited data

Results flagged for a closer look

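Within groups of 4 or 5 tumors, 61 sets of values were checked for a tumor far from the others, and 3 were found, where chance gives about 1 in 20. Zfp36l2 was at 10.8 UMIs per 10000 in control tumor 1, with the other control tumors at 5.10 to 6.30. Havcr2 was at 6.62 in control tumor 3, with the others at 4.003 to 4.45. The CD8 2 share of CD45+ cells was 5.33% in clobetasol tumor 2, which held 75 cells, with the other clobetasol tumors at 16.7% to 20.3%.

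The treatment difference in CD8 2 differed from that in CD8 1 for 4 genes in limma's test of the within-tumor difference. The difference of the differences was 1.90 for Cited2, 1.85 for Abl1, 1.91 for Scmh1 and 1.44 for N4bp2l1. Both fitted clobetasol tumors lay above all control tumors in CD8 2 for each of the 4 genes. Of all genes tested, 22% showed no overlap in either direction, and the 4 genes were picked by a test on these same values. With clobetasol tumors 1, 2 and 4 included, Cited2 was the 1 gene of the 4 without overlap, against 4.74% of all genes tested.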

How the results depend on the processing

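The count of genes called for treatment, 105, was 103 with DESeq2, 81 with edgeR, 79 with edgeR over tumors of 3 or more cells, 104 and 114 with pseudocounts of 0.1 and 1, 108 with median-of-ratios scaling and 129 with a filter of 0.2. It was 23 with limma over tumors of 3 or more cells, 168 with averaged log values, 52 without a filter and 51 without cells of 3 or more macrophage marker UMIs (an alternative added after seeing the data, as was edgeR over tumors of 3 or more cells). Leaving out 1 tumor gave 50 to 108, with 50 without control tumor 3. The cause of these shifts was not tested. Genes called against CD8 1, 101 in all, numbered 44 with a pseudocount of 1 and 280 over the clobetasol tumors, and those against CD8 3, 311 in all, numbered 152 with a pseudocount of 1. The clobetasol tumors held too few CD8 3 cells for that comparison. The 4 genes that differed between CD8 2 and CD8 1 in their treatment difference became 2 with a pseudocount of 1, 1 against CD8 1 and CD8 3 together, and 0 to 35 when 1 tumor was left out.

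The difference in the CD8 2 share, 8.80 points, was 7.53 over tumors of 50 or more cells (exact permutation p = 0.0893) and 7.62 to 11.3 with 1 tumor left out. That in UMIs per cell was 1666.1 for means (exact permutation p = 0.0397), 288.2 for genes per cell (exact permutation p = 0.0397), 3505.5 over tumors of 10 or more cells (exact permutation p = 0.0476) and 1406.25 to 2599.75 with 1 tumor left out. The ratio of CD8 2 to CD8 1 kept its direction and call throughout. Differences that changed sign were those of Havcr2 (−0.033), Tnfrsf9 (−0.00114) and Ctla4 (−0.26) over tumors of 3 or more cells, Ctla4 with edgeR there (−0.014) and without clobetasol tumor 5 (−0.10) or control tumor 1 (−0.11), 2 (−0.04) or 5 (−0.05), Prf1 without cells of 3 or more macrophage marker UMIs (0.049), Ifng without clobetasol tumor 3 (0.75) and, against CD8 1, Ccl3 over the clobetasol tumors (−0.062). With 1 tumor left out, Ctla4 ran from −0.11 to 0.18 and Ifng from −3.46 to 0.75. The −3.46 of Ifng, without clobetasol tumor 5, was called (limma adjusted p = 0.00214), and so were Ccl3 and Ccl4 there. The treatment differences that changed sign were not called. Of the values for single genes, 1196 kept direction and call, 167 lost and 39 gained the call, 33 moved and 11 changed sign. The 1196 include those of the minimum of 5 cells per tumor, which repeated the main fit. Leaving out all cells with a macrophage marker UMI could not be fitted, since 1 control tumor kept 10 cells. Depth is limited to 46 clobetasol cells, so a missing call does not show that a gene was unaltered.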

Other observations

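T cell receptor V gene transcripts were sparse in these 3′ libraries, with a Trav UMI in 8% to 32% of the CD8 2 cells of a control tumor. In control tumor 3, Trav5-1 took 11 of the 27 Trav UMIs of CD8 2 cells (40.7%, exact binomial 95% interval 22.4 to 61.2), spread over 8 of 114 cells. In the same tumor it took 27 of 55 Trav UMIs of CD8 1 cells and 6 of 11 of CD8 3 cells, and 0 UMIs were found in its regulatory T cells, CD4 T cells or macrophages or in the CD8 2 cells of the other tumors. In control tumor 5, Trav16 took 7 of 10 Trav UMIs of CD8 2 cells, in 6 cells. V genes are near-identical copies between which reads may be split, and UMIs of 1 cell are not independent, so the interval covers counting error only.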
